A study of Macaca mulatta with 20 samples.

Results

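NEDD1, STK26, STK17B and S100A2 had lower messenger RNA signals in the corpora lutea of rhesus macaques given chorionic gonadotropin than in untreated ones, from the first day of treatment and on every later day studied. These 4 genes, of 14132 named on the array, form a group because their signals lay below the untreated level in all 4 treated groups. All 12 probe sets that carry 1 of these symbols alone, of 52707 tested, are described: 4 for NEDD1, 5 for STK26, 2 for STK17B and 1 for S100A2. The differences from the untreated group therefore chose the genes and are given as descriptions with no test. Tests were kept for comparisons among the treated groups, which did not enter the choice.

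The study measured 20 arrays in 5 groups of 4, all from the corpus luteum of females. One group was untreated and collected on luteal day 10. The other groups received recombinant human chorionic gonadotropin (hCG) by intramuscular injection, 2 times per day from luteal day 9, in doses that rose in 9 steps from 15 to 2880 IU, which simulates early pregnancy. They were collected on luteal day 10, 12, 15 or 18, after 1, 3, 6 or 9 days of hCG, and are called hCG day 10, 12, 15 and 18 here. The untreated group and hCG day 10 share a luteal day, whereas from hCG day 12 on the length of treatment, the age of the gland and the dose rose jointly and cannot be told apart. Whether the 4 samples of a group are 4 animals is not stated in the labels, and p values then reflect just the spread among these samples, which may be technical.

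The corpus luteum is the remnant of the follicle after ovulation and the main source of progesterone. Chorionic gonadotropin, made by the early placenta, binds the LH receptor of luteal cells and prolongs the life of the gland. The 4 genes belong to different families. NEDD1 brings the gamma-tubulin ring complex, the seed of new microtubules, to centrosomes and mitotic spindles. STK26, also called MST4, is a kinase of the germinal centre kinase III subgroup that works with the adaptor PDCD10 and the STRIPAK phosphatase complex. STK17B, also called DRAK2, belongs to the death-associated protein kinase family and is best known for setting the activation threshold of T cells. S100A2 is a small calcium-binding protein of the EF-hand type, known from basal epithelial cells.

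Each array gave a deposited signal, a linear intensity, for 52865 probe sets, and the median signal of an array ran from 31.6 to 46.4 intensity units. The number of arrays limits the precision. Principal component 3 (8.4% of the variance) set 3 arrays apart, at -54.8 to -50.2 against -4.8 to 23.6 for the other 17. These were replicate 2 of the untreated group, replicate 1 of hCG day 12 and replicate 2 of hCG day 15. In the check of the labelled tissue, 3 of 6 luteal markers were measured, and STAR, the cholesterol carrier of steroid synthesis, had mean signals of 14870 to 17390 across the 5 groups. Changes below are differences in log2(signal + 16), which understates the change of dim probe sets, with standard errors (SE) from 1 limma model over the 20 arrays. HSD3B2, another luteal marker, a dehydrogenase of progesterone synthesis, had mean signals of 8320 in the untreated group and 10320, 6507, 4347 and 2340 on the treated days. Against the untreated group it changed by -0.97 ± 0.21 on hCG day 15 (adjusted p = 0.0243, limma, and 0.151 without the 3 arrays) and by -1.83 ± 0.21 on hCG day 18 (adjusted p = 4.44e-05, limma), and its part in the members' values was not tested. The mean signals of INHA, the inhibin alpha subunit, ran from 6431 in the untreated group to 9029 on hCG day 18. The median change of all probe sets against the untreated group was -0.05, -0.06, -0.05 and -0.03 on hCG days 10, 12, 15 and 18. In whole tissue, fewer cells of a type and less RNA per cell cannot be told apart.

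NEDD1 showed a low and nearly level signal across the treated groups. In its brightest probe set (MmugDNA.28623.1.S1_at) the untreated arrays read 2168, 1518, 2264 and 2128. On hCG day 10 the same probe set read 495, 527, 464 and 340, so the highest of these was far below the lowest untreated array. The arrays of hCG day 12 read 343, 722, 642 and 541. Those of hCG day 15 read 483, 674, 361 and 461, and those of hCG day 18 read 454, 333, 454 and 380. No treated array reached the untreated range, and the treated groups overlapped one another. The mean was 2020 ± 339 (SD, n = 4) in the untreated group and 457 ± 81.7, 562 ± 164, 495 ± 131 and 405 ± 59.4 in the treated groups in order of day, or 22.6%, 27.8%, 24.5% and 20.1% of the untreated mean. On the log2 scale these differences were -2.11, -1.85, -2.01 and -2.27 (SE 0.22 each).

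The lowest untreated value of NEDD1 came from replicate 2, 1 of the 3 arrays that stood apart. Without it the untreated mean was 2187 ± 69.7 (n = 3) and the log2 differences were -2.24, -1.98, -2.14 and -2.40. The other 3 NEDD1 probe sets had the same shape. Their log2 differences from the untreated group ran from -2.42 to -2.10 for MmugDNA.32364.1.S1_at, from -2.52 to -2.36 for MmuSTS.3270.1.S1_at and from -2.25 to -2.01 for MmuSTS.3270.1.S1_s_at. In all 4 probe sets the 16 treated arrays lay below the 4 untreated ones.

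STK26 also changed little from one treated group to the next. Its brightest probe set (MmugDNA.11043.1.S1_at) read 685, 244, 623 and 597 in the untreated arrays. It read 89.5, 132, 68.3 and 175 on hCG day 10, and 74.9, 210, 159 and 87.4 on hCG day 12. On hCG day 15 the values were 168, 84.3, 139 and 158, and on hCG day 18 they were 96.5, 139, 121 and 126. Treated and untreated arrays did not overlap, but untreated replicate 2, at 244, was close to the highest treated array, hCG day 12 replicate 2, at 210. The untreated mean was 537 ± 199, and the treated means were 116 ± 47.3, 133 ± 63.6, 138 ± 37.5 and 121 ± 17.9, which is 21.7%, 24.8%, 25.6% and 22.4% of it. The log2 differences were -2.04, -1.90, -1.79 and -1.93 (SE 0.33 each), and -2.37, -2.23, -2.12 and -2.26 without untreated replicate 2.

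The probe sets of STK26 did not all show this size of difference. MmuSTS.1472.1.S1_at differed by -1.94 to -1.84 and MmugDNA.11045.1.S1_s_at by -1.39 to -1.22, both with all 16 treated arrays below the 4 untreated ones. MmugDNA.11043.1.S1_s_at differed by -1.18 to -0.99, and 14 of its 16 treated arrays lay below the lowest untreated value of 78.1. The fifth, MmugDNA.11045.1.S1_at, had signals from 0.130 to 8.79, under 16 on all 20 arrays, and differed by -0.16 to -0.10. Thus 4 of the 5 STK26 probe sets were lower by about 1 or more on the log2 scale, and the remaining one had no usable level in any group. Probe sets whose names end in s_at hold probes shared by several transcripts in the array maker's naming, so their size need not equal that of the others.

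STK17B was lowest on hCG days 10 and 12 and less far below the untreated level afterwards. Its brighter probe set (MmugDNA.38993.1.S1_at) read 836, 488, 377 and 432 in the untreated arrays. On hCG day 10 it read 133, 129, 161 and 147, a narrow range far below all untreated arrays. It read 67.9, 217, 60.5 and 133 on hCG day 12, the widest spread of the treated groups relative to its mean. It read 295, 178, 196 and 145 on hCG day 15, and 332, 202, 289 and 210 on hCG day 18. The highest array of hCG day 18, at 332, stayed below the lowest untreated array, at 377. The untreated mean was 533 ± 207, and the treated means were 142 ± 14.6, 120 ± 72.7, 204 ± 64.8 and 258 ± 63.0, or 26.7%, 22.5%, 38.2% and 48.5% of it. The log2 differences were -1.73, -2.10, -1.30 and -0.96 (SE 0.31 each).

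The second STK17B probe set (MmuSTS.4064.1.S1_at) followed the same course. Its untreated arrays read 277, 236, 155 and 155, and those of hCG day 10 read 52.7, 46.4, 35.2 and 46.0. It read 63.0, 70.3, 15.3 and 25.4 on hCG day 12, 94.4, 84.9, 57.3 and 38.1 on hCG day 15, and 114, 81.8, 83.6 and 95.5 on hCG day 18. Again no treated array reached the untreated range. Its log2 differences were -1.83, -1.98, -1.40 and -0.98 (SE 0.29 each), close to those of the brighter probe set on every day.

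S100A2 had the widest untreated spread and a treated level that was lower still on hCG day 18. Its only probe set (MmuSTS.2361.1.S1_at) read 1934, 6862, 2036 and 1139 in the untreated arrays. It read 487, 225, 591 and 467 on hCG day 10, and 674, 520, 426 and 248 on hCG day 12. On hCG day 15 it read 139, 267, 522 and 179, and on hCG day 18 it read 146, 134, 141 and 116. All treated arrays were below all untreated ones, and the 4 arrays of hCG day 18 were close together. The untreated mean was 2993 ± 2610, and the treated means were 443 ± 155, 467 ± 178, 277 ± 172 and 135 ± 13.3, or 14.8%, 15.6%, 9.24% and 4.50% of it. The log2 differences were -2.45, -2.38, -3.19 and -3.98 (SE 0.46 each).

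These shares rest in part on untreated replicate 2, whose 6862 was the highest S100A2 signal of the series. Without that array the untreated mean was 1703 ± 491 (n = 3), the treated means were 26.0%, 27.4%, 16.2% and 7.90% of it, and the log2 differences were -1.94, -1.87, -2.68 and -3.47. The array with the highest S100A2 of its group thus had the lowest NEDD1 and STK26 of its group. With 1 probe set, the S100A2 values have no second probe set to be set beside.

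**Figure D1:**
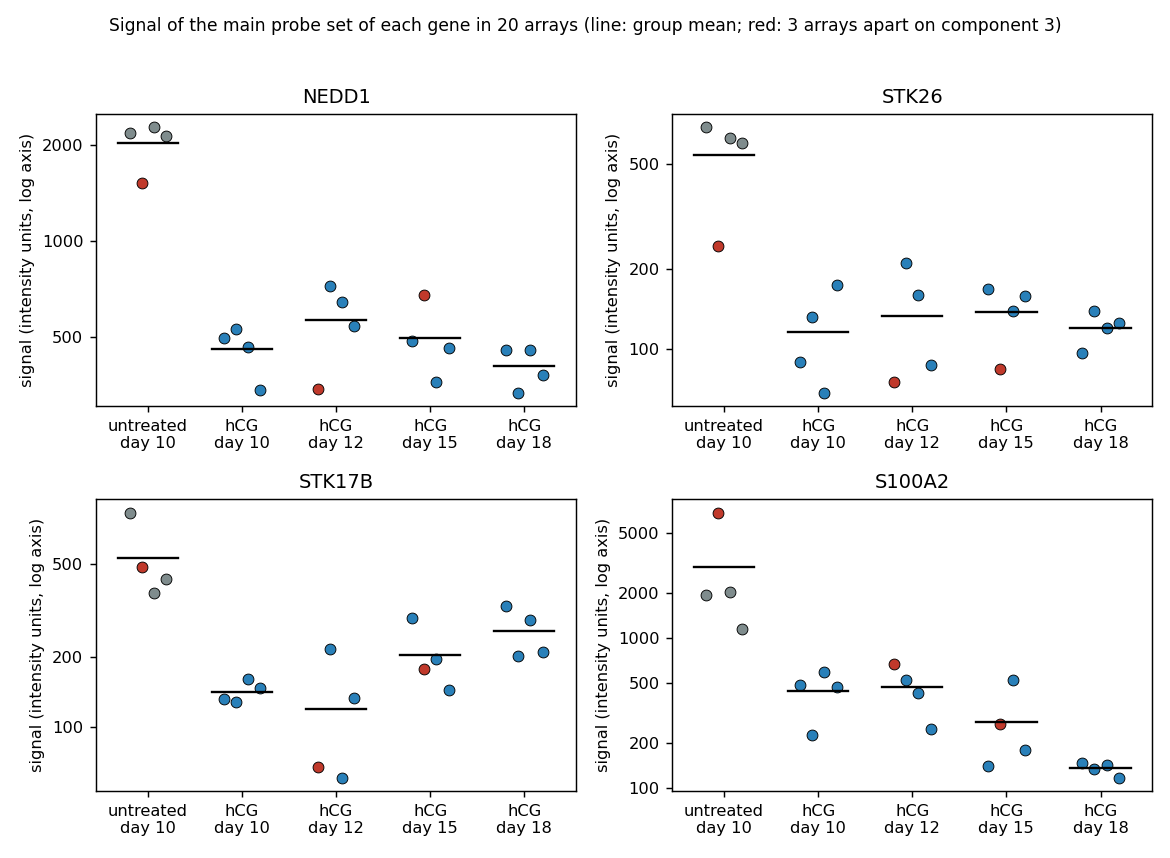
Signal of the brightest probe set of each gene (intensity units, log axis) in the 20 arrays, grouped by treatment and luteal day, with points for arrays, lines for the means of 4 arrays and red for the 3 arrays that stood apart on principal component 3. In all 4 panels the untreated arrays lie above the 16 treated ones, the STK17B means go up from 120 on hCG day 12 to 258 on day 18, and those of S100A2 go down from 467 to 135.

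**Figure D2:**
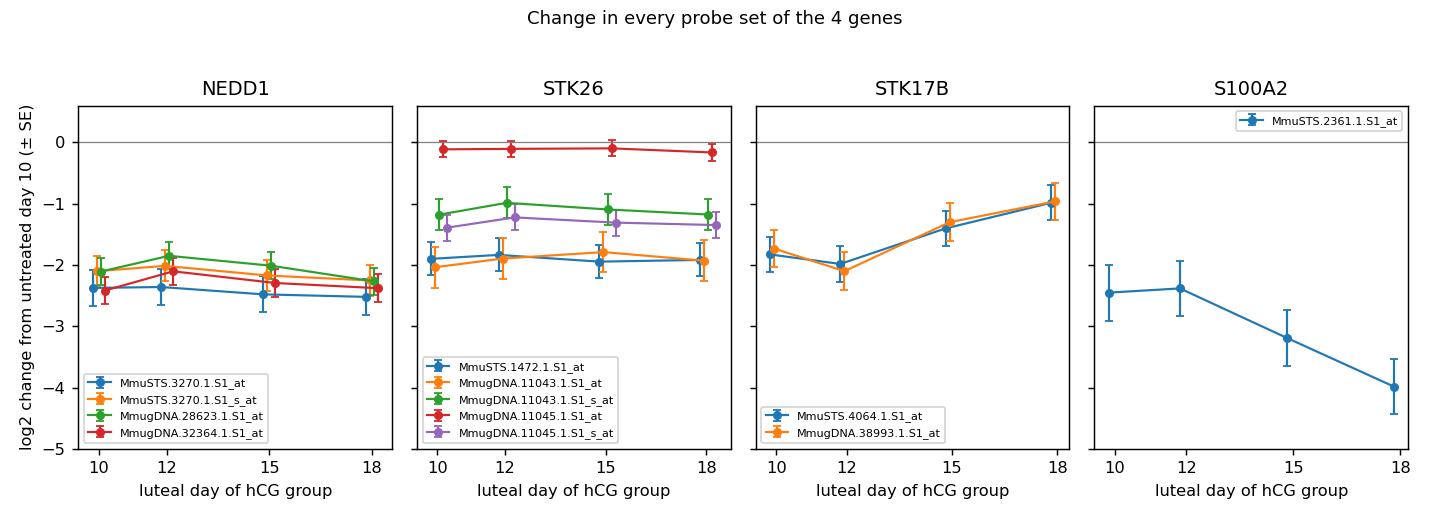
Log2 change from the untreated group (± SE from the model) against the luteal day of the treated group, with 1 line per probe set of each gene. The 4 NEDD1 lines run between -2.52 and -1.85, the 2 STK17B lines lie close together and end near -1, and the STK26 line next to 0 belongs to the probe set under 16 on all 20 arrays.

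The values also place these genes against all probe sets. Across the array, 0.305% of probe sets (161 of 52707) had all 16 treated arrays below the 4 untreated ones, and 10 of the 12 member probe sets were among them. At an adjusted p under 0.05 (limma, Benjamini-Hochberg), 22 probe sets of 11 named genes were lower in all 4 comparisons with the untreated group, which is 0.0417% of those tested. The rule used these contrasts, so nothing about the 4 genes is read from these counts. Of the 4 genes, NEDD1, STK26 and S100A2 were among the 11, and STK17B was not. The others included GRB14, an adaptor of the insulin receptor, BCO2, a carotenoid-cleaving enzyme, and ID4, which blocks DNA binding of basic helix-loop-helix proteins. The rest were AFF2, BTC, the growth factor betacellulin, UBP1, CBLL2 and IGF2BP2. Without the 3 arrays that stood apart, 17 probe sets met this rule, 15 of them shared with the 22. In the single comparisons, from the first to the last treated day, the lower probe sets made up 0.304%, 0.131%, 0.674% and 2.02%, and probe sets changed in either direction 0.954%, 0.288%, 1.29% and 3.9%.

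The differences between treated groups did not enter the choice of genes and were tested. From hCG day 10 to 12, 0.518% of all probe sets changed (273). From day 12 to 15 and from day 15 to 18 the share was 0% (0 probe sets by limma, with 2705 and 3688 at an unadjusted p under 0.05). From hCG day 10 to 18 it was 5.21% (2744). None of the 12 member probe sets passed in any of these 4 comparisons (limma), and at an unadjusted p under 0.05 their numbers were 0, 1, 0 and 3. Over all 52707 probe sets the numbers at that unadjusted p were 4362, 2705, 3688 and 9146 (limma). The member counts are therefore not read as a result. A p that misses the threshold does not show equal levels, so the sizes and intervals follow.

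S100A2 had the largest difference of the members between the last and the first treated group. Its 4 arrays of hCG day 18 (116 to 146) lay below all 4 of hCG day 10 (225 to 591). The log2 difference was -1.53 ± 0.46 (SE, 95% confidence interval -2.49 to -0.58), or 2.89-fold lower, with an adjusted p of 0.0573 (limma). Across 18 alternatives the adjusted p ran from 0.0138 to 0.161, and it passed in 6 of them. Leaving out hCG day 10 replicate 2, the lowest array of that day, gave -1.82 and an adjusted p of 0.0362 (limma), and leaving out the 3 arrays that stood apart, none of which belongs to these groups, gave an adjusted p of 0.0209 (limma). The steps from day 12 to 15 (-0.81 ± 0.46) and from day 15 to 18 (-0.79 ± 0.46) did not pass (adjusted p = 1 and 0.796, limma).

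STK17B differed in the opposite direction. Its arrays of hCG day 18 lay above those of hCG day 10 without overlap in both probe sets, at 202 to 332 against 129 to 161 in the brighter one and at 81.8 to 114 against 35.2 to 52.7 in the other. The log2 difference was 0.77 ± 0.31 (95% confidence interval 0.13 to 1.41, adjusted p = 0.18, limma) and 0.84 ± 0.29 (0.24 to 1.44, adjusted p = 0.103, limma). For the brighter probe set the adjusted p ran from 0.0438 to 0.384 over 18 alternatives (limma) and passed in 1, the fit of the 8 arrays alone. The largest step was from day 12 to 15, at 0.80 ± 0.31 in the brighter probe set (adjusted p = 0.871, limma) and 0.58 ± 0.29 in the other. With S100A2, 3 of 12 member probe sets did not overlap between hCG days 10 and 18, against 11.5% of all probe sets.

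NEDD1 and STK26 showed no difference between the last and the first treated group that passed. For NEDD1 the log2 difference was -0.16 ± 0.22 (95% confidence interval -0.62 to 0.30, adjusted p = 0.795, limma), and in its other probe sets it was -0.15 to 0.04. For STK26 it was 0.11 ± 0.33 (-0.59 to 0.80, adjusted p = 0.926, limma). In both genes all probe sets overlapped between hCG days 10 and 18. Whether the changes differed between genes was not tested.

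**Figure D3:**
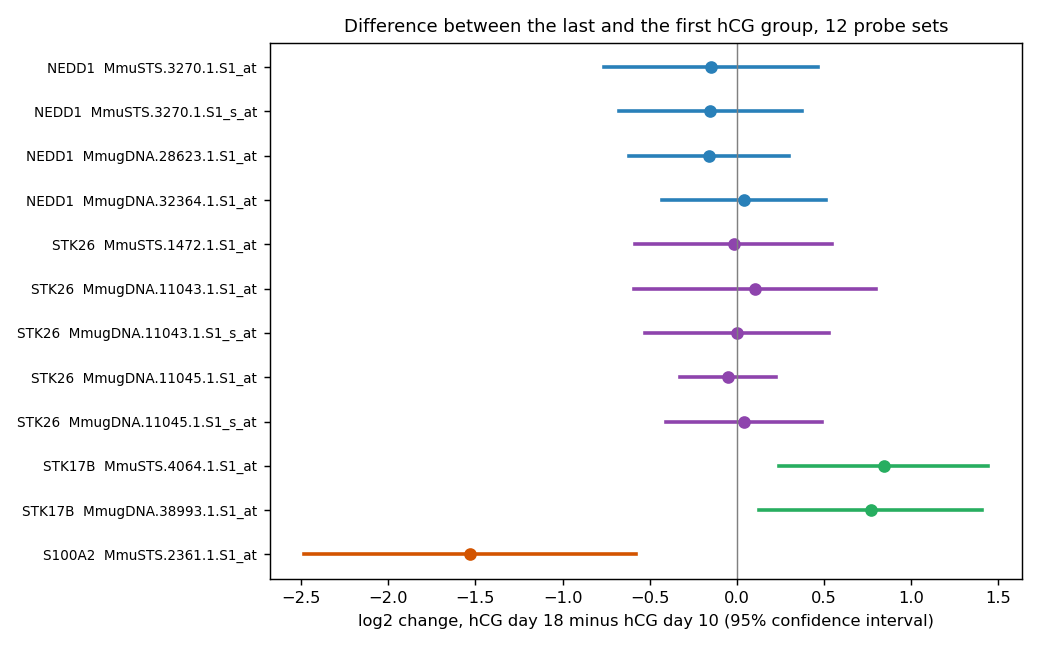
Log2 change from hCG day 10 to hCG day 18 with its 95% confidence interval from the limma model, for the 12 probe sets. The 9 intervals of NEDD1 and STK26 include 0, both of STK17B lie above 0 and that of S100A2 lies below 0, although none passed after adjustment over all probe sets.

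The likeness of the 4 patterns was measured as the root mean square difference, over the 20 arrays, of log2 values taken relative to each probe set's own untreated mean. This measure holds the differences from the untreated group that chose the genes, so it describes the patterns and tests nothing. NEDD1 and STK26 were the most alike pair of members (0.49), and STK17B and S100A2 the least alike (1.8). The named genes most like NEDD1 were STK26 (0.44, by MmuSTS.1472.1.S1_at), TNFRSF11B, the decoy receptor osteoprotegerin (0.55), and AFF2 (0.65). For comparison, the other NEDD1 probe sets differed from the brightest by 0.28, 0.38 and 0.51. For STK26 the nearest were NEDD1 (0.49), AFF2 (0.72) and TNFRSF11B (0.73). For STK17B they were NEBL (0.54), GRB14 (0.58) and USP39 (0.61), against 0.37 for its own second probe set. No gene was as close to S100A2, whose nearest were NEDD1 (1.06), MRO (1.12) and PTGDR, a prostaglandin D2 receptor (1.13). In their other probe sets the named genes did not all keep the direction: 1 of 3 MRO probe sets, 2 of 3 of NEBL and 1 of 2 of USP39 were below the untreated level on all 4 days.

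Arrays of the same group could also vary together, apart from the treatment. The 6 pairs of members were compared by the correlation of their deviations from the group means over 20 arrays, with two-sided permutation tests within groups, and none passed. NEDD1 and STK26 had r = 0.25 and rho = 0.31 (permutation p = 0.384 and 0.255, adjusted p = 0.576 and 0.58). S100A2 varied against NEDD1 (r = -0.45, permutation p = 0.0805, rho = -0.28, permutation p = 0.29) and against STK26 (r = -0.49, permutation p = 0.0956, rho = -0.43, permutation p = 0.117). The adjusted p was 0.287 for both r values and 0.58 for both rho values. Without the 2 arrays farthest from the median these r values were -0.28 and -0.18, and without the 3 arrays that stood apart -0.22 and -0.02, so they rest on those arrays. STK17B was not clearly related to any member, with r from -0.05 to 0.30 (smallest permutation p = 0.381).

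Probe sets of one gene varied together from array to array in part. Over 17 pairs within genes, the 2 NEDD1 probe sets from MmuSTS.3270 had r = 0.87 and rho = 0.89 (adjusted permutation p = 0.00034 and 0.00068), and r = 0.85 without the 2 farthest arrays. The pair MmugDNA.28623.1.S1_at and MmugDNA.32364.1.S1_at had r = 0.81 and rho = 0.79 (adjusted permutation p = 0.00068 and 0.00102), and 0.85 without those. Between members of these 2 NEDD1 pairs r was 0.26 to 0.63. In STK26, MmuSTS.1472.1.S1_at and MmugDNA.11045.1.S1_s_at had r = 0.85 and rho = 0.81 (adjusted permutation p = 0.00119 and 0.00391), and 0.78 without the 2 farthest. The 2 STK17B probe sets had r = 0.57 and rho = 0.45 (adjusted permutation p = 0.163 and 0.269), and r = 0.32 without the 2 farthest, so at this number of arrays their array-to-array variation was not shown to be shared.

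The families and partners of each member were followed in 4 lists, with 1 probe set per gene. Of 22 gamma-tubulin and augmin genes around NEDD1, 14 were measured. None passed against the untreated group on any day (0 of 14 by limma, with 3, 0, 0 and 1 at an unadjusted p under 0.05), and the list medians were -0.04, 0.02, -0.05 and -0.09. TUBG1, gamma-tubulin itself, had a mean signal of 781 in the untreated group and 1052, 774, 645 and 530 on the treated days. It fell from hCG day 10 to 18 by 0.98 ± 0.19 on the log2 scale (adjusted p = 0.00486, limma), in a comparison where NEDD1 differed by -0.16. CEP192, another scaffold of the centrosome, differed by -0.32 on hCG day 10 and -1.07 on day 18 and did not pass.

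The kinases nearest STK26 did not pass against the untreated group on any day. STK24 had mean signals of 1636 in the untreated group and 1749, 1960, 2027 and 1989 on hCG days 10, 12, 15 and 18. STK25 had 469 and then 513, 478, 433 and 385. PDCD10, the adaptor of all 3 kinases, had 1855 and then 1741, 1761, 2168 and 1972. Of 18 listed genes 16 were measured, and against the untreated group 0 of 16 passed on hCG days 10, 12 and 15 (limma, with 3, 2 and 2 at an unadjusted p under 0.05). On day 18 SIKE1, a STRIPAK-associated suppressor of IKK-epsilon, was the 1 gene that fell, by 0.80 ± 0.21 (adjusted p = 0.038, limma). All 3 of its probe sets were lower, at -0.80 to -0.25, and 1 of them passed.

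In the death-associated protein kinase list, all 6 genes were measured, and against the untreated group none passed on hCG days 10, 12 and 15 (limma, with 0, 2 and 2 at an unadjusted p under 0.05). STK17A, the closest relative of STK17B, had mean signals of 843 in the untreated group and 668, 613, 670 and 654 on the treated days. Its log2 differences of -0.36, -0.45, -0.34 and -0.35 did not pass. DAPK1, the founding member, rose by 1.36 ± 0.22 on hCG day 18 (780 to 2048, adjusted p = 0.00125, limma) and by 1.10 ± 0.22 from hCG day 10 to 18 (adjusted p = 0.00545, limma). Its other probe set was higher too, by 0.65 and 0.62, and did not pass. STK17B lay below the untreated level on day 18, but it was chosen for that, so no contrast with DAPK1 is read there. From hCG day 10 to 18 STK17B differed in the same direction as DAPK1, by 0.77 and 0.84 in its 2 probe sets, and did not pass.

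Of 23 genes of the S100 family and its partners, 17 were measured. Against the untreated group 0 of 17 passed on hCG days 10, 12 and 15 (limma, with 2, 2 and 1 at an unadjusted p under 0.05). On day 18 the calcium sensor S100A6 fell, from a mean of 9972 to 6233 (-0.72 ± 0.19, adjusted p = 0.0362, limma), in all 3 of its probe sets. That call was lost without the 3 arrays that stood apart (adjusted p = 0.0941, limma) and with median-centring (0.0575). S100A8, a calprotectin subunit of myeloid cells, rose from hCG day 10 to 18, from a mean of 35.6 to 577 (2.75 ± 0.74, adjusted p = 0.0359, limma). It has 1 probe set, whose signals over all arrays ran from 16.2 to 1595. S100A9 had means of 25.8 and 29.8 on these days and did not pass (0.06, adjusted p = 0.953, limma). Other S100 genes did not pass, such as S100A14 (1699 to 1006 on day 18, -0.76, adjusted p = 0.142, limma) and S100A16 (2226 to 1859). TP63, a known regulator of S100A2 in epithelium, had group means of 17.7 to 31.2 and did not pass.

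**Figure D4:**
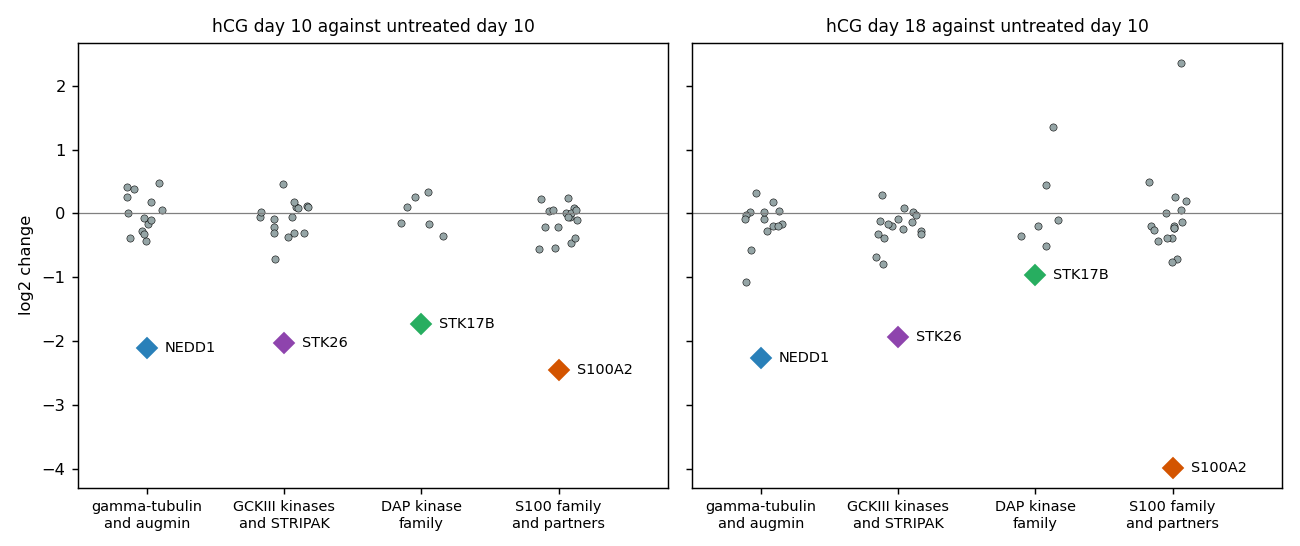
Log2 change against the untreated group on hCG day 10 and hCG day 18 for the measured genes of 4 lists (grey points, 14, 16, 6 and 17 genes) and for the member each list belongs to (diamonds). On day 10 the 4 members, which were chosen by these changes, lie at -1.73 or lower and every listed gene above -1. On day 18 DAPK1 is at 1.36 and S100A8 at 2.36, the latter short of the test.

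Genes beside each member in the RefSeq gene order (assembly T2T-MMU8v2.0, 3 measured protein-coding genes on either side) were compared as well. Of the 24 neighbours, 0 passed against the untreated group on hCG days 10, 12 and 15 (limma, with 5, 6 and 3 at an unadjusted p under 0.05), and their changes on day 10 ran from -1.29 to 0.40 with a median of 0. The lowest was NABP1, a single-stranded DNA binding protein gene near STK17B (-1.29, adjusted p = 0.0517, limma). It fell on day 18 by 1.49 (adjusted p = 0.00809, limma). On day 18, TMPO and IKBIP beside NEDD1 fell by 0.84 and 0.48, S100A6 beside S100A2 fell as above, and IGSF1 beside STK26, with an untreated mean signal of 17.9, rose by 0.57 (adjusted p = 0.0139, 0.0374, 0.0362 and 0.0256, limma). With NABP1, 4 of 24 neighbours fell that day and 1 rose (limma, 8 at an unadjusted p under 0.05), against 3.9% of all probe sets. Over all 52707 probe sets the numbers at that unadjusted p were 6545, 5566, 6248 and 8218 on hCG days 10, 12, 15 and 18 (limma).

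Markers of cell types that could carry these transcripts were set beside the members. For NEDD1, 7 of 8 markers of proliferating cells were measured. Against the untreated group 0 of 7 passed on hCG days 10 and 12 (limma, with 0 and 1 at an unadjusted p under 0.05), 4 fell on day 15 and all 7 fell on day 18, with list medians of -0.26, -0.45, -1.09 and -1.70. Without the 3 arrays that stood apart, 2 fell on day 15. The cyclin gene CCNB1 differed by -0.19, -0.33, -1.22 and -1.86 over the 4 days (adjusted p = 0.759, 0.589, 0.00404 and 3.07e-05, limma), and MKI67 by -0.17, -0.45, -1.10 and -1.70. NEDD1, which was chosen for low values on these days, was at -2.11 on day 10, beside the list median of -0.26. From hCG day 10 to 18, 6 of the 7 fell (median -1.53) and NEDD1 differed by -0.16. The summed signal of the 7 was 2071 to 2961 in untreated arrays, 1449 to 2594 on hCG day 10 and 571 to 909 on hCG day 18. Their part in the result was not tested.

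For STK17B, 9 of 16 lymphocyte markers were measured. Against the untreated group 0 of 9 passed on any day (limma, with 1, 1, 1 and 0 at an unadjusted p under 0.05), with medians of -0.17, -0.36, -0.07 and 0.15. PTPRC, the leukocyte phosphatase CD45, had mean signals of 705 in the untreated group and 401, 490, 686 and 1102 on the treated days. It rose from hCG day 10 to 18 by 1.36 ± 0.36 (adjusted p = 0.0306, limma), in the comparison where STK17B differed by 0.77. All 4 PTPRC probe sets were higher in that comparison, by 0.51 to 1.36, and 2 of 4 passed. PTPRC was the 1 of 9 lymphocyte markers that passed there (limma), and the median of the list was 0.30. ZAP70 had means of 228.8 in the untreated group and 165.3, 173.8, 149.2 and 178.1 on the treated days. CD8A had 100.2 and then 62.36, 75.83, 75.36 and 80.46. CD5 and CD8B had 48.66 and 28.16 in the untreated group and 52.81 and 46.55 on hCG day 18. The listed T cell genes CD3D, CD3E, CD3G, CD2, LCK and IL7R were not measured. The B cell markers MS4A1 and CD79A had group means under 16 throughout. The summed signal of the 9 markers was 923 to 1380 in untreated arrays, 581 to 1021, 713 to 1265 and 809 to 1403 on hCG days 10, 12 and 15, and 963 to 2318 on day 18. Among macrophage markers, 5 of 6 measured, CSF1R and CD14 rose from hCG day 10 to 18 (1.14 and 0.95). Without the 3 arrays that stood apart, or with median-centring, 1 of them passed. Against the untreated group, 0 of 5 macrophage markers passed on hCG days 10, 12 and 15 (limma, with 0, 0 and 0 at an unadjusted p under 0.05), and CSF1R rose by 1.06 ± 0.23 on hCG day 18 (adjusted p = 0.0121, limma). The medians of the 5 were -0.12, -0.19, 0.09 and 0.69, beside a STK17B difference of -0.96 on hCG day 18. The part of these cells in the STK17B values was not tested.

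For S100A2, 8 of 12 epithelial markers were measured, and 0 of 8 passed against the untreated group on any day (limma, with 0, 1, 1 and 1 at an unadjusted p under 0.05). The basal keratin genes KRT5, KRT14, KRT15 and KRT17 were the ones not measured, so these counts say little about basal cells. KRT7, EPCAM and CDH1, which define many epithelia, had group means under 16 in all groups, the untreated one included. KRT8 had means of 126 in the untreated group and 108, 34.1, 22.0 and 35.9 on the treated days, and KRT18 had 375, 537, 483, 483 and 563. KRT19 had 56.73 in the untreated group and then 36.95, 66.44, 71.78 and 52.55. The summed signal of the list was 490 to 770 in untreated arrays, 582 to 981 on hCG day 10, 305 to 1035 on day 12, 382 to 853 on day 15 and 658 to 745 on day 18. On hCG day 10, where S100A2, chosen for low values, stood at -2.45, KRT8 differed by -0.17 and KRT19 by -0.43. On hCG days 12, 15 and 18 KRT8 differed by -1.76, -2.0 and -1.67 (adjusted p = 0.224, 0.0784 and 0.0962, limma). The part of epithelial cells in the S100A2 values was not tested. Of 6 endothelial markers, all measured, 0 passed against the untreated group on any day (limma, with 1, 0, 0 and 0 at an unadjusted p under 0.05).

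**Figure D5:**
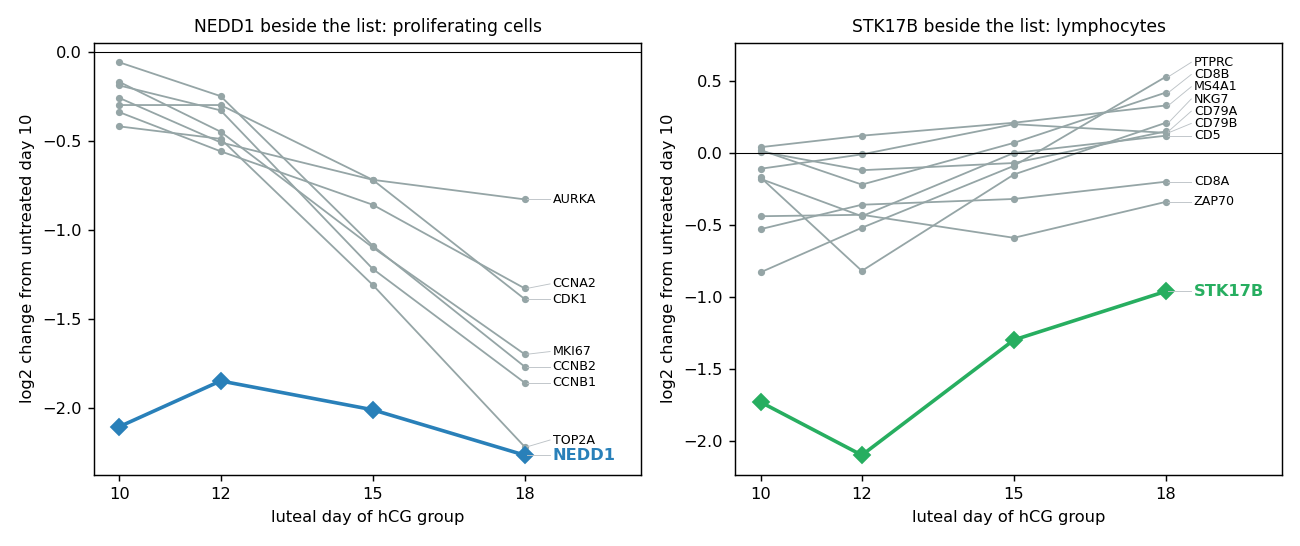
Log2 change from the untreated group against the luteal day of the treated group for NEDD1 beside 7 markers of proliferating cells, and for STK17B beside 9 lymphocyte markers (grey lines, 1 probe set per gene). On hCG day 10 NEDD1 is at -2.11 while the 7 markers lie between -0.42 and -0.06, and on day 18 TOP2A at -2.22 comes close to NEDD1 at -2.27. STK17B lies below all 9 lymphocyte markers on every day. NEDD1 and STK17B were chosen for low values on these days and the markers were not, so their lower place is no test.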

How the data were processed

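The 4 genes and the gene lists were chosen with earlier results of these data known. The deposited values are 1 linear intensity signal per probe set and array, made by the authors with the Affymetrix GCOS software, per the submitters' processing notes. Its version and scaling target are not given in the sources used here. The 2% trimmed mean, computed from the table, is 200.01 or 200.02 in all arrays. Arrays have no read depth. Symbols came from the platform annotation. Of 52865 probe sets, 158 array controls were left out, and 24956 of the remaining 52707 carry 1 symbol.

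Signals were analysed as log2(signal + 16), with no further scaling or filter. One limma model (version 3.58.1, R version 4.3.3) held a mean per group over 20 arrays, with eBayes and Benjamini-Hochberg adjustment over all probe sets. A gene's main probe set is that with the highest mean log2 value. Named from each list were at most 4 genes past an adjusted p of 0.05 in any of the 8 comparisons, or 2 as values. Further relatives and partners were chosen after their values were seen. The 3 genes most like each member and 3 measured neighbours per side were also named. Correlations used 100000 permutations within groups. The procedure was tested on simulated data. A check of their deviations did not show that same-numbered arrays of different groups were paired, and it cannot exclude a weak pairing. The median r was 0.03 over 40 same-numbered pairs (-0.28 to 0.36), against -0.02 over 120 others (-0.34 to 0.37). Alternatives were median-centring, quantile normalisation, pseudocounts of 1 and 64, only the upper 50% of probe sets, a fit of the 8 arrays of a comparison alone, array weights, a trend of the variance on signal, the replicate number as a block, and leaving out each array. Leaving out the 3 arrays that stood apart was added after seeing the data.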

Additional observations from a re-analysis of the deposited data

Results flagged for a closer look

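Of 60 groups of 4 arrays (12 probe sets in 5 groups), 4 held 1 array far from the other 3, by the gap to its nearest neighbour over the range of the group (past Dixon's 95% limit). Chance gives about 1 in 20 such groups. In S100A2, untreated replicate 2 read 6862 against 1139 to 2036 in the others (gap over range 0.843, and 0.678 on the log2 scale, which is under the limit). In the STK26 probe set MmuSTS.1472.1.S1_at, hCG day 18 replicate 2 read 102.6 against 55.2 to 62.6 (gap over range 0.843, and 0.805 on the log2 scale, which is also under the limit). In the dim STK26 probe set MmugDNA.11045.1.S1_at, hCG day 10 replicate 3 read 5.053 against 0.130 to 0.333, and hCG day 18 replicate 2 read 1.986 against 0.257 to 0.326, all of them under 16 and without a usable level (past the limit on both scales).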

How the results depend on the processing

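Against the untreated group, the 4 main probe sets were lower in all 288 values from the alternatives (-4.33 to -0.73 on the log2 scale). Between treated groups, 278 of 288 values kept their direction, and the calls that changed were those of S100A2 and STK17B from hCG day 10 to 18. S100A2 passed with median-centring (-1.60, adjusted p = 0.0419), the upper 50% of probe sets (0.0318), the 8 arrays alone (0.0138), a variance trend (0.0489), without hCG day 10 replicate 2 (0.0362) and without the 3 arrays that stood apart (0.0209), and STK17B with the 8 arrays alone (0.0438), all by limma. The counts over all probe sets moved more, and the cause was not tested. On hCG day 10 against untreated, 503 became 172 with the 8 arrays alone, 254 with a pseudocount of 1, 324 without the 3 arrays and 228 (without hCG day 10 replicate 3) to 577 when single arrays were left out. Omitting untreated replicate 2, 3 or 4 gave 279, 298 or 265, and omitting hCG day 10 replicate 4 gave 275. On day 12, 152 became 233 with the upper 50% of probe sets, 7 with the 8 arrays alone, 95 with a pseudocount of 1, 254 with array weights, 93 without the 3 arrays and 73 (without hCG day 12 replicate 3) to 290 (without hCG day 12 replicate 2), and was 77 when untreated replicate 1 was omitted and 82 when untreated replicate 4 or hCG day 12 replicate 4 was. On day 15, 681 became 230 with the 8 arrays alone, 410 with a pseudocount of 1, 359 without the 3 arrays and 321 (without hCG day 15 replicate 4) to 774, and was 379 or 428 when untreated replicate 1 or 4 was omitted. On day 18 the range over single arrays was 1375 to 2120. From hCG day 10 to 12, 273 became 56 with the 8 arrays alone, 146 with a pseudocount of 1 and 151 (without hCG day 12 replicate 4) to 286. Omitting hCG day 10 replicate 1, 3 or 4 gave 170, 169 or 168, and omitting hCG day 12 replicate 1 or 3 gave 179 or 174. From day 12 to 15 a pseudocount of 1 gave 2 and single arrays 0 to 4, from day 15 to 18 single arrays gave 0 to 1, and from day 10 to 18 1834 to 2844. With the replicate number as a replicate block, the counts were 417, 160, 673 and 2002 against the untreated group and 250, 0, 0 and 2773 between treated groups, and no member changed its call. Array number and the signal over background limit what dim probe sets can show.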
